A study of Mus musculus with 12 samples.

Results

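The hairpins described here are Mir142, Mir223, Mir150, Mir155, Mir146 and Mir146b, best known from white blood cells, and Mir142b, annotated opposite Mir142. They were measured in small RNA libraries of mouse oocytes. All but Mir142b were chosen by name, for the cell type they are known from. Together they are 7 of the 2030 features and of the 1123 miRNA hairpins in the table. The table lists the named ones as Mir142_seq, Mir223_seq, Mir150_seq, Mir155_seq, Mir146_seq and Mir146b_seq, and the naming rule also takes in Mir142b. All 7 passed the filter on low values. The oocytes were taken by hand from ovaries of mice that had not been hormonally stimulated, in 12 libraries and 3 groups. The first group, called descendants here, holds 4 libraries of mice that carry no mutant allele themselves but whose grandfathers were Khdc3-null, with wild type grandmothers. The second holds 4 libraries from Khdc3-null mice, which lack a maternal-effect gene of the oocyte and early embryo. The third holds 4 libraries from wild type mice whose ancestors were wild type too. No strain, age, number of animals or number of oocytes is given in the labels, so the p-values measure how far these libraries scatter, which may be technical.

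A miRNA is cut from a hairpin transcript and guides silencing of mRNAs that pair with its seed, the bases near its 5′ end. In mice and humans, miR-142 is made across the blood lineages and is widely used to mark blood-derived cells, and miR-223 is typical of neutrophils and other myeloid cells, where it restrains granulocyte production. Mature lymphocytes are rich in miR-150, which represses Myb, and activated lymphocytes and macrophages induce miR-155. The miR-146 pair is induced by NF-κB and represses its activators TRAF6 and IRAK1, and is also made outside the blood. An ovary holds resident and circulating leukocytes, so these hairpins can reach an oocyte library from other cells.

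The mature sequences show which hairpins can share reads. They are RefSeq entries on build GRCm38.p6, written 5′ to 3′ with the seed (bases 2 to 8) in capitals, and were matched for 6 of the 7 hairpins. Mir150 is given by name.
miR-146b-5p: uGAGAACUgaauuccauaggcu
miR-146a-5p: uGAGAACUgaauuccauggguu
miR-142a-3p: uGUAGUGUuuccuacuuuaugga
miR-142a-5p: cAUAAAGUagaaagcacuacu
miR-142b: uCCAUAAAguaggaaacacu
miR-223-3p: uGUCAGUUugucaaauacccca
miR-155-5p: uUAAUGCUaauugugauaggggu

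Of these sequences, miR-146a-5p and miR-146b-5p share a seed, and no other pair does. The 2 miR-146 forms are alike at 20 of 22 positions and differ by G18A and U21C, counted from the 5′ end with the miR-146a-5p base first. Their names in the table are Mir146 and Mir146b. The 20 bases of miR-142b are the exact reverse complement of bases 4 to 23 of miR-142a-3p, because Mir142b is annotated on the strand opposite to Mir142. The sources used here do not say how strand, or a read with several alignments, was treated in counting. Reads of Mir142 and Mir142b therefore cannot be told apart with certainty, and the miR-146 loci may share reads whose 3′ ends were trimmed or edited.

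The hairpins lie at 6 places in the genome (GRCm38, with the same bounds in RefSeq and GENCODE M21). Mir142 (chr11:87756864-87756927, plus strand) lies in an intron of its host transcript Mir142hg, and all 64 of its bases are inside Mir142b (chr11:87756841-87756955, minus strand). Mir146 (chr11:43374397-43374461, minus strand) and Mir150 (chr7:45121757-45121821, plus strand) overlap no other annotated gene. Mir146b (chr19:46342762-46342870, plus strand) lies in an intron of the protein-coding gene Mfsd13a. Mir155 (chr16:84714140-84714204, plus strand) lies in an exon of its long non-coding host Mir155hg. Mir223 (chrX:96242817-96242926, plus strand) lies in an exon of the non-coding transcript F630028O10Rik.

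Levels are in RPM, the usual scale of small RNA reads relative to all mapped reads of the same library. Mapped reads ranged from 5576835 to 7640554 in descendant, from 2918620 to 7294254 in Khdc3-null and from 4048534 to 7207786 in wild type libraries. A count of 0 allows up to 3 reads, or 0.393 RPM in the deepest and 1.03 RPM in the shallowest library, for counting error only. The 2 shallowest libraries were Khdc3-null replicates 2 and 1. Replicate 1 also stood apart, with a median correlation of 0.930 with the other libraries against 0.953 to 0.966 for the rest, and with 1524 RPM of the liver miRNA Mir122a against at most 92.9 RPM elsewhere. The labelled cell type could not be checked on mRNA markers, since the features are loci of small RNAs, and Khdc3 was not measured.

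Every member was detected in every library, at 3 to 772 reads, and together they were a small part of the miRNA reads. They summed to 180 to 252 RPM in descendant, 239 to 388 RPM in Khdc3-null libraries and 233 to 252 RPM in wild type libraries. These sums were between 0.133% and 0.257% of the reads on miRNA hairpins. The 2 highest sums, 388 and 331 RPM, belonged to Khdc3-null replicates 2 and 1, and the other 10 libraries reached at most 252 RPM. In bulk libraries such as these, fewer cells of a type and less RNA per cell cannot be told apart.

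By their means per length of hairpin, the members fell into an upper tier of 3, a middle tier of 3 and Mir142b at the bottom. On the scale of RPM per 100 nt, over all 12 libraries, Mir146 stood at a mean of 94.5 ± 33.99 (SD, n = 12), Mir146b at 90.6 ± 23.3 and Mir142 at 71.4 ± 30.3. The next 3 means on that scale were 18.8 ± 9.98 for Mir155, 17.7 ± 12.3 for Mir150 and 17.5 ± 7.49 for Mir223. Mir142b stood at 5.77 ± 4.39. Within libraries, Mir142 was above Mir155 and Mir223 above Mir142b in 12 of 12. Mir142b was not the lowest in every library, since it lay above Mir155 in wild type replicate 2 and above Mir150 in descendant replicate 2. The neighbours inside a tier changed places, with Mir146 above Mir146b in 8 of 12 libraries, Mir146b above Mir142 in 8, Mir155 above Mir150 in 7 and Mir150 above Mir223 in 7. Among the 1110 hairpins with a known length, their ranks by mean RPM per 100 nt ran from 254 for Mir146 to 956 for Mir142b. In RPM not divided by length, the tiers held the same members in another order. The upper means were 98.8 RPM for Mir146b, 61.5 for Mir146 and 45.7 for Mir142. Then came 19.3 RPM for Mir223, 12.2 for Mir155, 11.5 for Mir150 and 6.64 for Mir142b. Whether reads scale with the length of a hairpin was not tested.

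**Figure D1:**
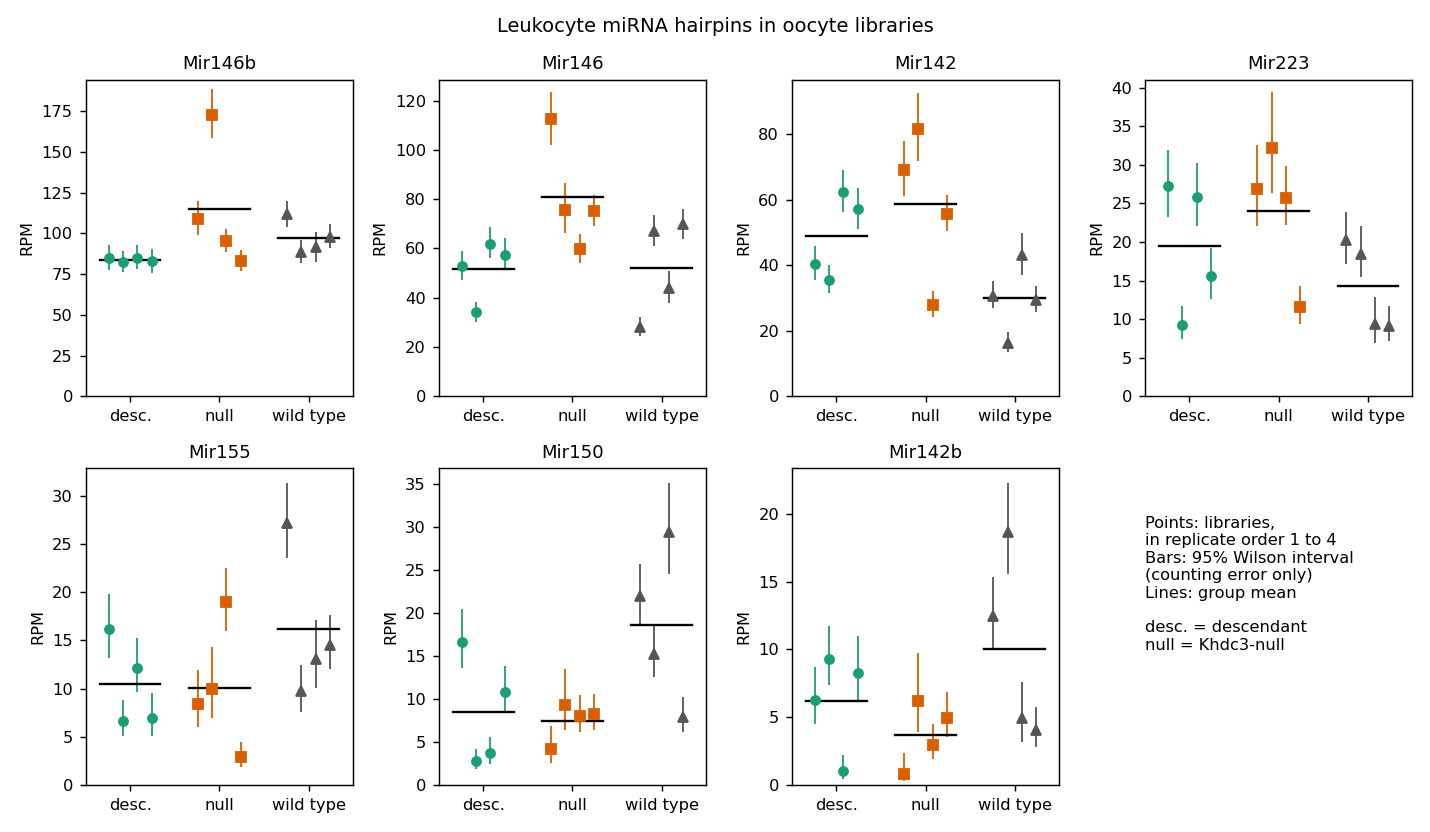
Level of each member in RPM (y axis, from 0) in the 4 libraries of each group (x axis: descendant, Khdc3-null, wild type), with 95% Wilson intervals that cover counting error only and a line at each group mean. Groups overlap for every member except Mir146b of descendants against wild type, and Khdc3-null replicates 1 and 2 hold the 2 highest values of Mir142.

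Differences between groups were tested with limma, on log2(RPM + 1), with the 12 libraries and the 1889 features tested fitted together and Benjamini-Hochberg adjustment over these features. None of the 7 members passed an adjusted p of 0.05 in any of the 3 comparisons, where 0% of all features did. The F test of any difference among the 3 groups called 0 members too, and 0% of all features. At an unadjusted p under 0.05, the F test gave 1 member, Mir142 (adjusted p = 0.901), beside 4.92% of all features. With limma-voom on the recovered reads, 0 members were called in each comparison as well. Any 2 of the comparisons share a group of libraries, so each is given with its own values.

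Mir142 had a higher mean in Khdc3-null than in wild type oocytes, without passing the test. This general blood marker stood at 40.3, 35.6, 62.3 and 57.0 RPM in descendant libraries, 68.9, 81.5, 27.9 and 55.7 RPM in Khdc3-null libraries and 30.7, 16.3, 43.0 and 29.4 RPM in wild type libraries. Of the Khdc3-null libraries 3 lay above every wild type library and 1 lay below 3 of them, so these groups overlapped. The difference of Khdc3-null minus wild type was 0.92 on the log2(RPM + 1) scale (SE 0.35, adjusted p = 0.919), with a 95% interval of 0.18 to 1.67. Descendant minus wild type gave 0.73 (SE 0.35, adjusted p = 0.946), and descendant minus Khdc3-null gave -0.19 (SE 0.35, adjusted p = 0.910). Without the 2 shallowest Khdc3-null libraries, chosen after seeing the data, the difference of Khdc3-null minus wild type was 0.47 (adjusted p = 0.944) and that of descendant minus Khdc3-null turned to 0.26. The values of Mir142 in those 2 libraries were the 2 highest of the 12.

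Mir223, the myeloid marker, was less abundant, and its 3 groups overlapped in part. It stood at 27.2, 9.29, 25.9 and 15.6 RPM in descendant, 26.8, 32.2, 25.7 and 11.5 RPM in Khdc3-null libraries and 20.3, 18.5, 9.39 and 9.16 RPM in wild type libraries. Of the Khdc3-null libraries 3 lay above every wild type library, as did 2 of the descendant libraries, and Khdc3-null replicate 4 lay among the wild type ones. Khdc3-null minus wild type was 0.71 on the log2(RPM + 1) scale (SE 0.42, adjusted p = 0.945), and descendant minus wild type was 0.39 (SE 0.42, adjusted p = 0.946). Descendant minus Khdc3-null was -0.31 (SE 0.42, adjusted p = 0.8804).

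Mir150 had lower means in descendant and in Khdc3-null than in wild type oocytes, without passing the test. This miRNA of mature lymphocytes stood at 16.7, 2.75, 3.69 and 10.8 RPM in descendant, 4.21, 9.25, 8.03 and 8.23 RPM in Khdc3-null libraries and 22.0, 15.2, 29.4 and 7.91 RPM in wild type libraries. Of the wild type libraries 3 lay above all 4 Khdc3-null libraries, and wild type replicate 4 lay among them. Descendant minus wild type was -1.20 on the log2(RPM + 1) scale (SE 0.52, adjusted p = 0.946), with a 95% interval of -2.31 to -0.08. Khdc3-null minus wild type was -1.13 (SE 0.52, adjusted p = 0.945), with an interval of -2.24 to -0.01. Descendant minus Khdc3-null was -0.07 (SE 0.52, adjusted p = 0.978), with an interval of -1.19 to 1.05, which leaves room for a 2.06-fold higher or a 0.439-fold level of RPM + 1.

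Mir155, the miRNA of activated lymphocytes and macrophages, had a broad spread in each group. It stood at 16.1, 6.67, 12.1 and 6.99 RPM in descendant, 8.42, 9.94, 19.0 and 2.88 RPM in Khdc3-null libraries and 27.2, 9.70, 13.1 and 14.6 RPM in wild type libraries. The 3 groups overlapped, and wild type replicate 1 was the highest of the 12. Descendant minus wild type was -0.57 on the log2(RPM + 1) scale (SE 0.49, adjusted p = 0.946) and Khdc3-null minus wild type was -0.76 (SE 0.49, adjusted p = 0.945). Descendant minus Khdc3-null was 0.20 (SE 0.49, adjusted p = 0.944), and turned to -0.23 without Khdc3-null replicate 4.

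Mir146, which gives miR-146a, had its highest mean in Khdc3-null oocytes. It stood at 52.7, 34.03, 61.9 and 57.4 RPM in descendant, 112, 75.7, 59.6 and 75.3 RPM in Khdc3-null libraries and 27.9, 67.1, 43.7 and 69.8 RPM in wild type libraries. Khdc3-null replicate 1 was the highest of the 12, and Khdc3-null replicate 3 lay among the libraries of the other groups. Khdc3-null minus wild type was 0.67 on the log2(RPM + 1) scale (SE 0.30, adjusted p = 0.945), and descendant minus Khdc3-null was -0.63 (SE 0.30, adjusted p = 0.722). Descendant minus wild type was 0.04 (SE 0.30, adjusted p = 0.991), and turned to -0.23 without wild type replicate 1.

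Mir146b was the most even member, and the one whose groups did not overlap in a comparison. It stood at 84.8, 82.5, 85.1 and 82.8 RPM in descendant, 109, 173, 95.4 and 83.2 RPM in Khdc3-null libraries and 112, 88.5, 91.4 and 98.1 RPM in wild type libraries. All 4 descendant values were lower than all 4 wild type values, but the nearest libraries, at 85.1 and 88.5 RPM, had 95% Wilson intervals of 78.0 to 92.8 and 81.6 to 96.1 RPM, which overlap. In descendants against wild type, 2.75% of all features did not overlap, and 1.48% were lower without overlap. The members without overlap numbered 0 in Khdc3-null against wild type and 0 in descendants against Khdc3-null, where 3.18% and 3.02% of all features had none. Descendant minus wild type was -0.21 on the log2(RPM + 1) scale (SE 0.20, adjusted p = 0.946). The summed miRNAs of stroma and vessels were also lower in all 4 descendant libraries, at 7291 to 8761 RPM, than in any wild type library, at 9571 to 12776 RPM, and their part in the Mir146b values was not tested. Khdc3-null minus wild type was 0.19 (SE 0.20, adjusted p = 0.990) and turned to -0.025 without Khdc3-null replicate 2, the library at 173 RPM. Descendant minus Khdc3-null was -0.40 (SE 0.20, adjusted p = 0.723).

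Mir142b, annotated opposite Mir142, was the scarcest member. It stood at 6.27, 9.29, 1.007 and 8.25 RPM in descendant, 0.789, 6.17, 2.92 and 4.94 RPM in Khdc3-null libraries and 12.4, 18.6, 4.94 and 4.02 RPM in wild type libraries. Only the 0.789 RPM of Khdc3-null replicate 1 rested on as few as 3 reads, and all 3 groups overlapped. Khdc3-null minus wild type was -1.18 on the log2(RPM + 1) scale (SE 0.63, adjusted p = 0.945), descendant minus wild type was -0.63 (SE 0.63, adjusted p = 0.946), and descendant minus Khdc3-null was 0.55 (SE 0.63, adjusted p = 0.854). Single libraries moved these values. With each library left out in turn, descendant minus wild type ran from -0.93 (without wild type replicate 4) to -0.09 (without descendant replicate 3). Descendant minus Khdc3-null ran from 0.15 (without Khdc3-null replicate 1) to 1.09 (without descendant replicate 3), and Khdc3-null minus wild type from -1.48 (without wild type replicate 4) to -0.77 (without Khdc3-null replicate 1).

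**Figure D2:**
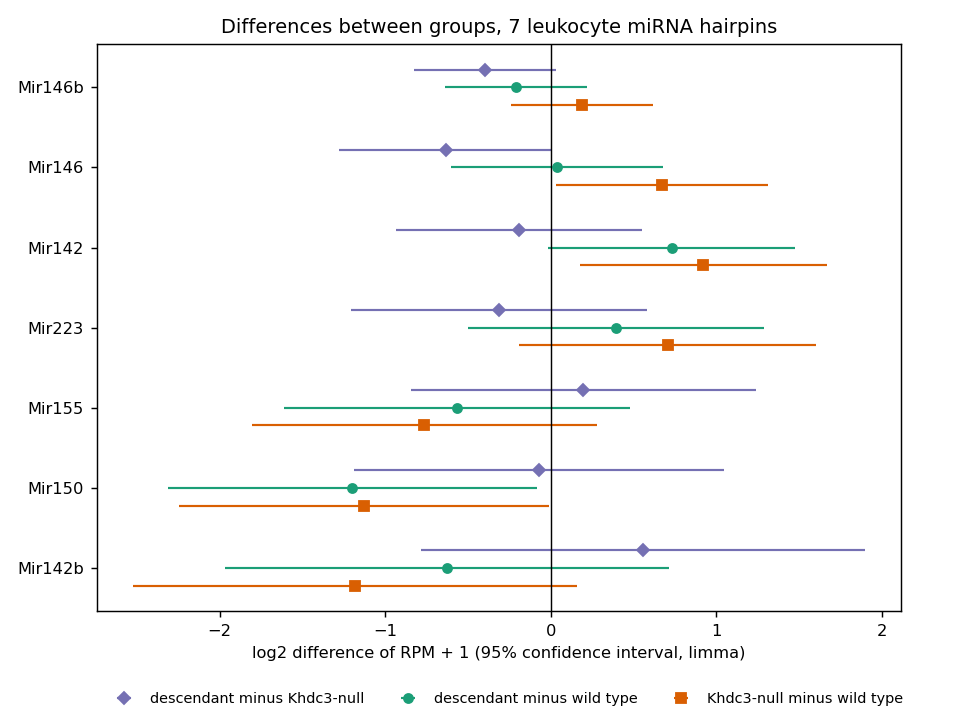
Difference between groups of each member on the log2(RPM + 1) scale (x axis) with its 95% confidence interval from limma, for the 3 comparisons of 4 against 4 libraries. Intervals of Mir142 and Mir146 for Khdc3-null minus wild type lie above 0 and those of Mir150 against wild type lie below 0, while none passes after adjustment over 1889 features.

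As a set, the members had no common direction. In Khdc3-null against wild type 4 were higher and 3 lower, with a median log2 difference of 0.19, beside -0.05 over all features. At an unadjusted p under 0.05 in limma there were 3 members, beside 5.03% of all features. Mir142 and Mir146 were higher, where 1.54% of all features were, and Mir150 was lower, where 3.49% were. Without Khdc3-null replicate 2 the count was 0, and it was 1 with any of Khdc3-null replicate 1 and wild type replicates 1, 2 and 3 left out. In descendants against wild type 3 were higher and 4 lower, with a median of -0.21 beside -0.02, and 1 member, Mir150, reached the unadjusted threshold, beside 4.08% of all features. It was lower, where 2.28% of all features were. The count was 0 without descendant replicate 3, wild type replicate 1 or wild type replicate 2, and with no filter on low values. It was 2 without Khdc3-null replicate 3, with limma-voom, with scaling to the miRNA total and with only the 2 groups compared. In descendants against Khdc3-null 2 were higher and 5 lower, with a median of -0.19 beside 0.05, and no member reached the unadjusted threshold, where 6.41% of all features did. That count was 0 to 2 with each library left out in turn and 0 to 1 under the other settings. These medians and directions are descriptions of 7 loci that are not independent of each other. They include Mir142b, which only the naming rule added.

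The spread between libraries was larger than counting error in 20 of the 21 combinations of member and group. There the coefficient of variation (CV, the SD as a percentage of the mean) was 1.72 to 7.90 times the CV that counting alone gives at these depths. In Mir142 the CV was 26.3% in descendant, 39.3% in Khdc3-null and 36.5% in wild type libraries, where counting alone gives 5.80%, 6.16% and 7.57%. The exception was Mir146b in descendants, with a CV of 1.60% where counting alone gives 4.43%. Mir146b had 34.7% in Khdc3-null and 10.6% in wild type libraries.

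**Figure D3:**
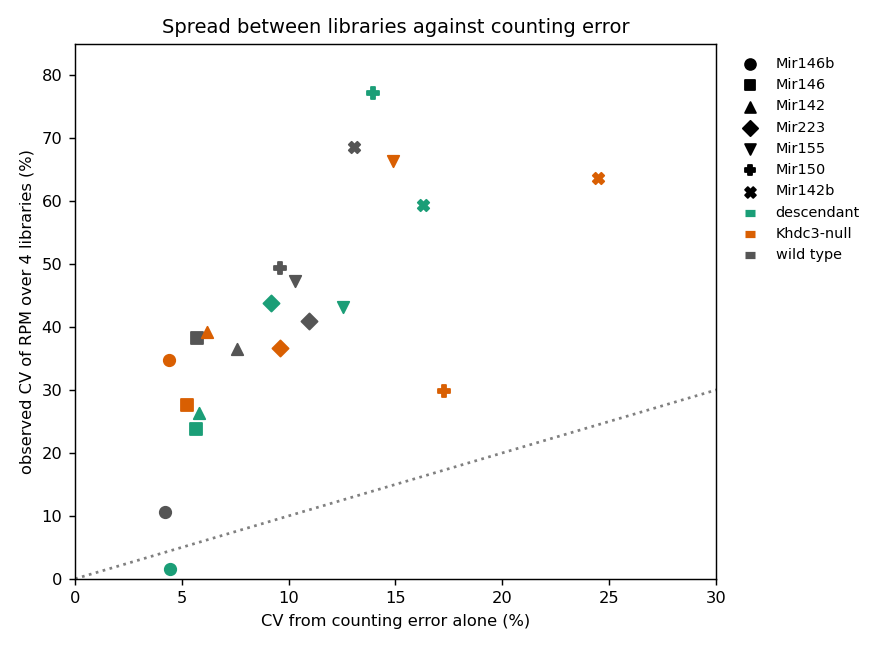
Coefficient of variation of RPM over the 4 libraries of a group (y axis, percent) against the value that counting error alone gives (x axis, percent), for each member (symbol) and group (colour), with a dotted line where both are equal. Of 21 points 20 lie above the line, and Mir146b of descendants, at 1.60%, lies below it.

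The loci that overlap were compared within libraries. Of the reads on Mir142 and Mir142b together, Mir142b held 1.59% to 20.7% in descendant, 1.13% to 9.48% in Khdc3-null and 10.3% to 53.3% in wild type libraries. In wild type replicate 2 Mir142b was above its partner, which occurred in 1 of 12 libraries. Over the 12 libraries log2(RPM + 1) of Mir142b and Mir142 had a Pearson r of -0.56 (permutation p = 0.0563, adjusted p = 0.367) and a Spearman rho of -0.40 (permutation p = 0.200, adjusted p = 0.487), with r = -0.50 without the 2 libraries farthest from the median of Mir142 and -0.39 within groups.

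Of the loci that share a seed, Mir146b was above Mir146 in RPM in 11 of 12 libraries. Per length of hairpin, Mir146 was the higher in 8 of 12. The ratio of Mir146b to Mir146 was 1.37 to 2.42 in descendant, 0.972 to 2.29 in Khdc3-null and 1.32 to 4.00 in wild type libraries. Their levels were only weakly related, with r = 0.22 (permutation p = 0.468, adjusted p = 0.585) and rho = 0.33 (permutation p = 0.299, adjusted p = 0.527), and r was 0.64 without the 2 libraries farthest from the median of Mir146b and -0.10 within groups. The blood markers Mir142 and Mir223 gave r = 0.28 (permutation p = 0.372, adjusted p = 0.539) and rho = 0.45 (permutation p = 0.147, adjusted p = 0.487), with r = 0.23 without 2 libraries and -0.01 within groups. Of the 35 relations computed, which are the 21 pairs of members and each member with Mir451a and with depth, none passed adjustment, with lowest adjusted permutation p-values of 0.367 for r and 0.417 for rho.

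**Figure D4:**
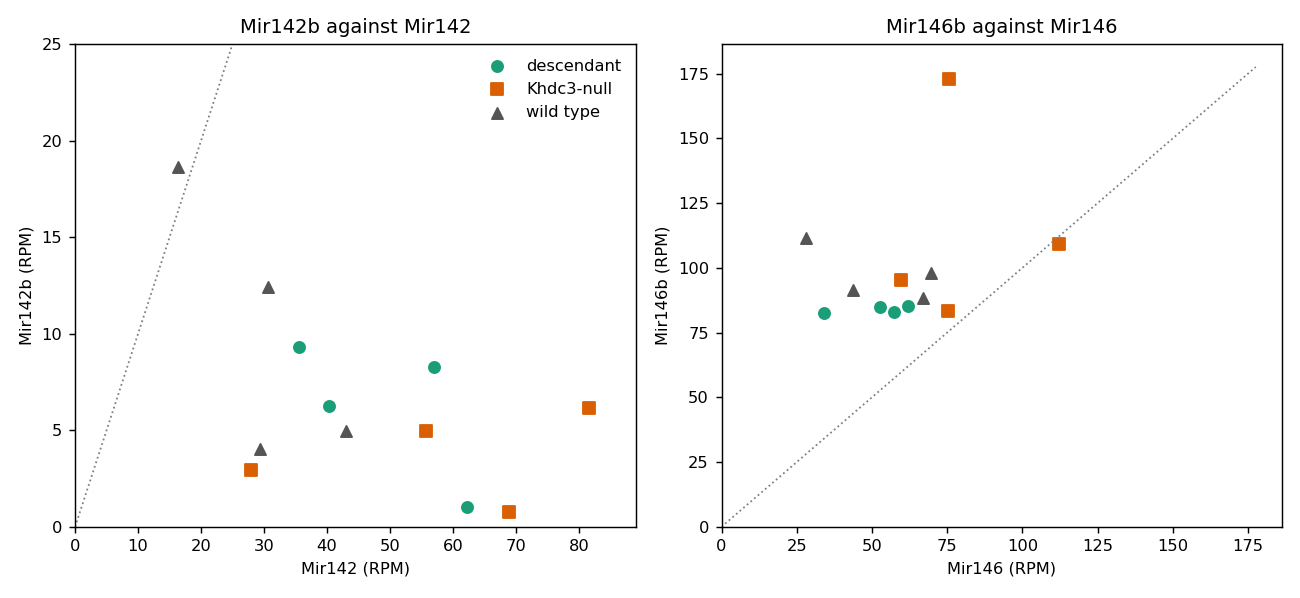
Left, Mir142b (y axis, RPM) against Mir142 (x axis, RPM) in each of the 12 libraries, and right, Mir146b against Mir146, with symbols by group and a dotted line where both are equal. Mir142b is above its partner in wild type replicate 2 alone, and Mir146b is above Mir146 in 11 of 12 libraries.

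The red cell marker Mir451a, processed in erythroid cells by a route that skips Dicer, is another sign of blood. It stood at 11.7, 18.5, 43.8 and 12.9 RPM in descendant, 62.3, 44.2, 3.21 and 2.88 RPM in Khdc3-null libraries and 1.45, 13.7, 5.19 and 19.4 RPM in wild type libraries. Its 3 highest libraries, Khdc3-null replicates 1 and 2 and descendant replicate 3, were also the 3 highest of Mir142. Over all 12 libraries Mir142 and Mir451a gave r = 0.46 (permutation p = 0.133, adjusted p = 0.471) and rho = 0.48 (permutation p = 0.115, adjusted p = 0.487), with r = 0.31 without the 2 libraries farthest from the median of Mir451a and 0.36 within groups. Mir150 and Mir451a went in opposite directions, with r = -0.59 (permutation p = 0.0436, adjusted p = 0.367) and rho = -0.58 (permutation p = 0.0518, adjusted p = 0.417), and with r = -0.40 without the 2 libraries and -0.51 within groups. Over the 7 members r with Mir451a ran from -0.59 for Mir150 to 0.56 for Mir146. The part of red or white blood cells in the levels above was not tested.

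Levels of several members were lower in deeper libraries. Mir146b and the log2 of mapped reads gave r = -0.69 (permutation p = 0.0193, adjusted p = 0.367) and rho = -0.39 (permutation p = 0.209, adjusted p = 0.487), with r = -0.66 within groups and 0.13 without the 2 libraries farthest from the median depth. Mir142 and the log2 of mapped reads gave r = -0.63 (permutation p = 0.0291, adjusted p = 0.367) and rho = -0.62 (permutation p = 0.0350, adjusted p = 0.417), with r = -0.68 within groups. Without the same 2 libraries r was -0.29, so both relations rest on them, and they are Khdc3-null replicates 1 and 2. Mir223 gave r = -0.44 (permutation p = 0.155, adjusted p = 0.471) and rho = -0.63 (permutation p = 0.0325, adjusted p = 0.417), with r = -0.02 without the 2 libraries and -0.37 within groups. The part of depth in these levels was not tested.

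**Figure D5:**
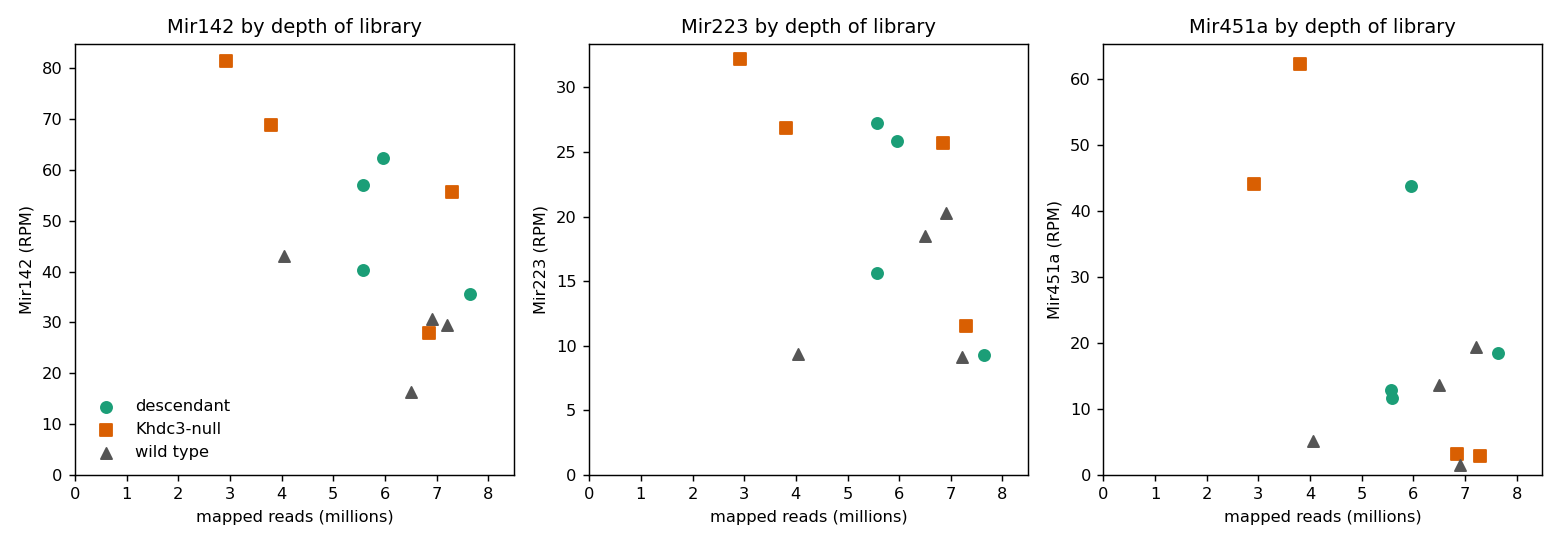
Mir142, Mir223 and the red cell marker Mir451a (y axes, RPM) against mapped reads (x axis) in each of the 12 libraries, with symbols by group. Khdc3-null replicates 1 and 2, the 2 shallowest libraries, hold the 2 highest values of Mir142 and of Mir451a.

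Marker lists of other cells give the setting of these levels, and none of their members passed the adjusted test in any comparison. The 8 other miRNAs of blood and immune cells summed to 779 to 1066 RPM in descendant, 619 to 884 RPM in Khdc3-null libraries and 728 to 838 RPM in wild type libraries. Their most abundant locus, Mir181a-1, known from lymphocyte development but made in many tissues, stood at 561 ± 114 RPM in descendant, 478 ± 86.4 RPM in Khdc3-null libraries and 485 ± 20.6 RPM in wild type libraries (SD, n = 4 each). The list had 4 members higher and 4 lower in Khdc3-null against wild type, 5 higher and 3 lower in descendants against wild type, and 5 higher and 3 lower in descendants against Khdc3-null. At an unadjusted p under 0.05 in limma, 1 was lower in Khdc3-null against wild type, where 3.49% of all features were.

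The 3 erythrocyte miRNAs summed to 73.7 to 232 RPM in descendant, 79.1 to 318 RPM in Khdc3-null libraries and 87.4 to 105 RPM in wild type libraries, led by Mir486 at 121 ± 47.6, 153 ± 71.9 and 83.4 ± 2.43 RPM. All 3 were higher in Khdc3-null against wild type, with a median log2 difference of 0.75. At an unadjusted p under 0.05 in limma, 1 of them was higher, where 1.54% of all features were. In descendants 2 were higher and 1 lower against wild type, and 1 higher and 2 lower against Khdc3-null. The 9 granulosa cell miRNAs, led by Mir322, summed to 3489 to 4187 RPM in descendant, 3777 to 5029 RPM in Khdc3-null libraries and 3691 to 5084 RPM in wild type libraries. Of these 2 were higher and 7 lower in Khdc3-null and also in descendants against wild type, and 3 higher and 6 lower in descendants against Khdc3-null. The 8 miRNAs of stroma and vessels, led by Mir10b, summed to 7291 to 8761 RPM in descendant, 9842 to 11364 RPM in Khdc3-null libraries and 9571 to 12776 RPM in wild type libraries. All 8 were lower in descendants against Khdc3-null (median log2 difference -0.32) and against wild type (median -0.33). At an unadjusted p under 0.05 in limma, 2 were lower in each, beside 6.41% and 4.08% of all features in either direction. In descendants against wild type, 2.28% of all features were lower at that threshold. Of the stroma and vessel list, 5 were higher and 3 lower in Khdc3-null against wild type. Loci of a list may not be independent of each other, so these directions are descriptions. The sum of the 7 members, at 180 to 388 RPM over all libraries, was below the granulosa and the vessel list in every library.

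The 12 miRNAs of muscle, liver and brain, tissues absent from the ovary, summed to 1251 to 1572 RPM in descendant, 1189 to 2555 RPM in Khdc3-null libraries and 1266 to 1598 RPM in wild type libraries. The 2555 RPM belong to Khdc3-null replicate 1, with its 1524 RPM of Mir122a, and the other Khdc3-null libraries reached at most 1325 RPM. Of the 12, 4 were higher and 8 lower in Khdc3-null and also in descendants against wild type, and 7 higher and 5 lower in descendants against Khdc3-null. Their most abundant locus, Mir133b of skeletal muscle, stood at 726 ± 96.7 RPM in descendant, 692 ± 25.8 RPM in Khdc3-null libraries and 795 ± 115 RPM in wild type libraries (SD, n = 4 each). The other muscle loci of the list did not share that level. Their group means ran from 1.94 RPM (Mir1a-2, Khdc3-null) to 157 RPM (Mir208a, descendant). Mir206 had means of 5.37, 7.25 and 2.82 RPM in descendant, Khdc3-null and wild type libraries. The brain locus Mir124a-2 had means of 282, 256 and 304 RPM in the same order. No list had a member at 0 in all 4 libraries of a group. In every group the sum of the 7 members described here was lower than the mean of Mir133b alone.

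The features whose log2(RPM + 1) followed each member most closely over the 12 libraries were mostly not blood miRNAs. They are the 3 of highest Pearson r among 1888 other features, a description with no test, since the highest of so many is large in any data. For Mir142 they were the piRNA locus pi-Dcaf7.2 (r = 0.83), Mir107 (0.77) and Mir7055 (0.77), and for Mir223 they were Mir433 (0.75), pi-Hic2.1 (0.74) and Mir6930 (0.74). For Mir146 they were Mir191 (0.79), Mir23a (0.78) and Mir23b (0.77), and for Mir146b they were Mir199a-1 (0.76), Mir29a (0.74) and Mir21b (0.73). For Mir150 they were Mir5621 (0.83), Mir431 (0.80) and Mir3095 (0.78), and for Mir155 they were pi-Fbxo41.1 (0.74), pi-Kctd7.2 (0.73) and Mir6911 (0.72). For Mir142b they were the tRNA locus chr13.trna106-TyrGTA (0.85), Mir5132 (0.83) and the tRNA locus chr13.trna1008-ThrAGT (0.83). Some of these features were scarce, with means of 1.59 RPM for chr13.trna1008-ThrAGT, 3.58 RPM for Mir7055 and 4.54 RPM for Mir6911. No member was among the closest 3 of another member.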

How the data were processed

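Small RNA of 12 oocyte libraries was sequenced after extraction with the PicoPure kit and library construction with the NEXTFLEX small RNA kit, per the labels' protocols. Reads were aligned with Bowtie2 to mm10, per the submitters' processing notes. The counter, its use of strand and the treatment of multiple alignments are not given in the sources used here. The deposited table gives RPM, scaled by the authors, with 1 added to every value. With that 1 taken off, 100% of the values equalled whole reads within 0.01 reads of a step found for each library, which gave the mapped reads (2918620 to 7640554).

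The filter kept 1889 of 2030 features, those with 1.61 RPM (10 reads in a library of median depth) or more in 4 or more libraries. The test was that of limma 3.58.1 (R 4.3.3), run on log2(RPM + 1), with a variance trend. The fit has 3 group means and no covariate. The adjusted threshold was 0.05. Wilson intervals (95%) cover counting error only, since reads carry no molecular identifiers. Because the deposited values are normalised and not raw counts, no count model was chosen as the main test. As an alternative to that test, limma-voom was run on the recovered reads. On simulated data with the spread of these libraries and 200 of 1889 features changed, 48%, 51% and 40% of 2-fold changes and 87%, 81% and 83% of 4-fold changes were recovered in Khdc3-null against wild type, descendants against wild type and descendants against Khdc3-null, with 4, 4 and 6 false calls. The adjusted threshold is stricter when fewer features change, so recovery may be lower in the data themselves. Residual SDs of Mir142, Mir223, Mir155, Mir150 and Mir142b lay at percentiles of 63.1 to 88.2 among all features, and recovery at such spreads was not given separately.

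The members, lists and tests were chosen with earlier results of these data known. The members are the rows whose names match the rule. Mir142b was added by it to 6 named loci. Of each other list, the most abundant member was to be named. Mir451a and Mir122a were named after their values were seen. Permutation p-values of relations use 100000 permutations, with Benjamini-Hochberg adjustment over 35 relations. Alternatives were other constants (0.5 and 5 RPM), filters, scalings, variance models and samples, and leaving out each library.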

Additional observations from a re-analysis of the deposited data

How the results depend on the processing

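No member passed the adjusted threshold in any comparison under any alternative run, with a lowest adjusted p of 0.398 over 452 recomputed differences, of which 437 kept their direction. The 15 reversed values belong to 6 of the 21 differences. For descendants minus Khdc3-null, Mir150 was 0.0060 with 5 RPM added, and leaving out each library gave -0.47 to 0.28, and Mir155 ranged from -0.23 to 0.56. For descendants minus wild type, Mir146 was -0.0036 with limma-voom and ranged from -0.23 to 0.22. For Khdc3-null minus wild type, Mir146b ranged from -0.025 to 0.32. Without Khdc3-null replicates 1 and 2, an alternative chosen after seeing the data, Mir146b of Khdc3-null minus wild type was -0.12, and Mir223 and Mir142 of descendants minus Khdc3-null were 0.053 and 0.26. The cause was not tested. Over all features, Khdc3-null against wild type gave 1 call, Mir6384, with no filter and 1 with no variance trend, and 0 to 1 when each library was left out. At an unadjusted p under 0.05 the members in Khdc3-null against wild type numbered 3 in the fit described, 0 to 4 without each library (0 without Khdc3-null replicate 2), 1 to 3 under the other planned settings and 0 without Khdc3-null replicates 1 and 2. Mir142b was below the filter of 10 RPM. No paired analysis was possible because the labels give no replicate numbers. Depth limits Mir142b most, at 3 to 121 reads a library.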
